A study of Mus musculus with 8 samples.

Results

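Brown adipose tissue (BAT) was compared with inguinal white adipose tissue (iWAT) in mice whose adipocytes lack the linker histone H1.2. The comparison used 4 of the 8 libraries of the series, chosen by their labels: 2 of BAT and 2 of iWAT, all from H1.2AKO mice. The other 4 libraries, 2 of BAT and 2 of iWAT from WT mice, served to read which depot differences were also measured with H1.2 present. H1.2AKO mice carry H1.2 flox/flox alleles and Cre recombinase driven by the adiponectin promoter, so that the gene is deleted in adipocytes, while the other cells of the tissue keep it. WT mice are H1.2 flox/flox littermates without Cre. All animals were C57BL/6 males of 10 weeks, kept at 22 °C. Each library is a pool of RNA, of 3 mice per the labels and of 2 mice per the methods of the study. The sources do not state whether the BAT and iWAT pools came from the same animals. In all counts of replicates below, n is the number of pools, and p-values measure only the spread between these pools. Of 44422 genes listed, 14079 had a mean of at least 0.5 FPKM (fragments per kilobase of gene, scaled to the library's size) over the 4 H1.2AKO libraries and were tested.

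Brown adipocytes burn fatty acids for heat. Their many mitochondria carry uncoupling protein 1 (Ucp1), which lets protons return across the inner membrane without making ATP, and sympathetic nerves switch this on in the cold. White adipocytes of the inguinal depot store triglyceride and secrete adipokines, but the depot can gain Ucp1-positive beige adipocytes, and it encloses a lymph node. Linker histones of the H1 family bind the nucleosome where DNA enters and leaves it and help to compact chromatin.

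Depth was similar in all 8 libraries, between 16118634 and 17480325 reads recovered from the deposited values. Transcripts of the mitochondrial genome took 32.6% to 34.3% of all FPKM in BAT of H1.2AKO mice, against 11.4% to 11.5% in iWAT of H1.2AKO mice. The divisor behind each library's FPKM was 0.873 to 0.896 times its read total in BAT and 1.25 to 1.32 times in iWAT of H1.2AKO mice, so a step of scaling between libraries, described in none of the sources used here, is already in the deposited values. On that scale the median difference between the depots over all genes was -0.017 in log2 units. The 2 pools of a group differed by a median of 0.177 in BAT and of 0.124 in iWAT of H1.2AKO mice, in log2 units.

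Hist1h1c, the gene of H1.2, was measured at 0.177 and 1.97 FPKM in BAT and at 2.26 and 1.73 FPKM in iWAT of H1.2AKO mice. These values rested on 4 and 45 reads in the BAT pools and on 81 and 55 reads in the iWAT pools. In WT mice the level was 36.8 and 43.3 FPKM in BAT and 23.7 and 24.2 FPKM in iWAT. All 4 H1.2AKO pools lay below every WT pool, and the first BAT pool lay lowest of all. Between the depots of H1.2AKO mice the difference was not called (log2 fold change -0.94 ± 0.53, SE; limma adjusted p = 0.18, n = 2 per depot). Without the second BAT pool it was -1.87 and called. Of the other linker histone genes, only H1fx passed the test, with 1.02 and 0.617 FPKM in BAT against 3.96 and 4.43 FPKM in iWAT. H1f0, the replacement variant of resting cells, had 88.1 and 112 FPKM in BAT and 64.9 and 79.2 FPKM in iWAT and was not called (adjusted p = 0.064).

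A majority of the expressed genes differed between the depots of H1.2AKO mice. Of 14079 genes tested, 7605 (54.0%) passed an adjusted p of 0.05 in limma. BAT was higher for 3686 of them (26.2%) and lower for 3919 (27.8%), and 8414 genes had an unadjusted p under 0.05. At a size of at least 2-fold, 1317 genes were higher in BAT (9.35%) and 2176 were lower (15.5%). At 8-fold, 81 were higher and 203 lower. The pools of the depots did not overlap for 11132 genes (79.1%). The split between the directions depended on the scaling. With mitochondrially encoded genes removed and the libraries rescaled, 2110 genes were higher and 5920 lower, around an all-gene median of -0.31. With FPKM recomputed from the reads in the table, 1554 were higher and 7506 lower, around a median of -0.50. Other scalings turned the balance the other way, with 4410 higher and 3430 lower around a median of 0.10 under quantile normalization, and 3950 higher and 3698 lower around a median of 0.02 under median-ratio scaling. Bulk tissue cannot tell a change in the number of cells of a type from a change in RNA per cell, for any of the differences given here.

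Most of these depot differences were also called in WT mice, whose libraries are separate, although both comparisons took 1 estimate of spread from all 8 libraries. In WT, 7527 of 14094 genes were called (53.4%), 3570 higher (25.3%) and 3957 lower (28.1%) in BAT. Among the 13718 genes tested in both genotypes, 6353 were called in the same direction in both, 3040 higher and 3313 lower in BAT. These were 85.1% of the 7464 H1.2AKO calls tested in both and 86% of the 7390 WT calls. With each genotype fitted alone 5607 were shared, 80.6% of the H1.2AKO calls, and with 1 library left out 71.8% to 90.9% were. Of the 3382 H1.2AKO calls of at least 2-fold, 3231 were called in the same direction in WT (95.5%). The median absolute log2 difference of the shared calls was 1.02 in H1.2AKO and 0.98 in WT mice. Across genes, which are not independent replicates, the log2 differences of H1.2AKO and WT had a Pearson r of 0.90.

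**Figure D1:**
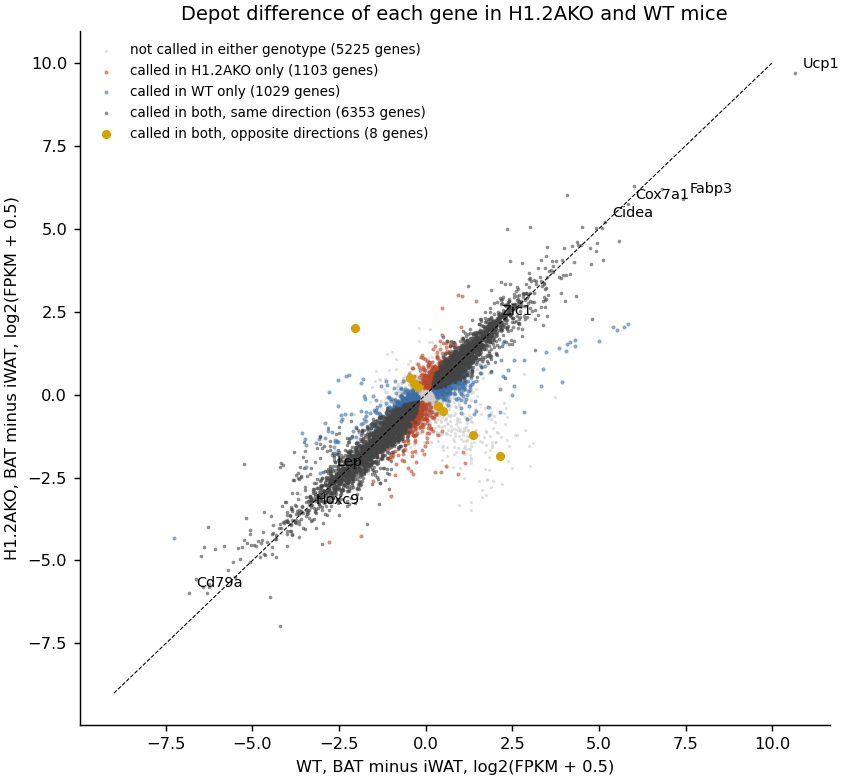
BAT minus iWAT on the log2(FPKM + 0.5) scale in WT mice (x axis) and in H1.2AKO mice (y axis), 1 point per gene tested in both, coloured by where it was called. The 6353 genes called in the same direction in both follow the diagonal, while the 1103 genes called in H1.2AKO mice only and the 1029 called in WT mice only lie mostly nearer to 0, apart from genes such as Tnnc1 (2.05 in H1.2AKO mice, 5.39 in WT mice).

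A further 1103 genes were called in H1.2AKO mice only. Of these, 1014 had the same sign in WT and 292 had an unadjusted p under 0.05 there. Their median absolute log2 difference was 0.52 in H1.2AKO and 0.26 in WT mice. Another 1029 genes were called in WT only. A call in 1 genotype does not show a difference between genotypes, which is the question of the interaction test. By that test in limma 0 of 14455 genes passed (0.00%), and 804 had an unadjusted p under 0.05 (5.56%). Of those 804, 307 were called in the same direction in both genotypes, against 6353 of all 13718 genes tested in both.

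Ucp1 (chromosome 8 from 83290348 to 83298456, + strand, GRCm38.p6) was the gene with the largest log2 difference in favour of BAT. It was measured at 2856 and 2603 FPKM in BAT and at 3.41 and 2.33 FPKM in iWAT of H1.2AKO mice. WT mice had 2801 and 2490 FPKM in BAT and 0.547 and 2.01 FPKM in iWAT. The depots lay far apart in each genotype, and both iWAT pools of H1.2AKO mice lay above both of WT mice. The log2 difference between depots was 9.68 ± 0.38 in H1.2AKO mice (adjusted p = 1.6e-05) and 10.67 in WT mice, and the interaction did not pass (adjusted p = 0.85).

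The thermogenic program was higher in BAT almost throughout. Of its 26 tested genes, 24 (92.3%) were higher and 0 lower in BAT of H1.2AKO mice, against 26.2% higher among all genes tested, and their median log2 difference was 3.66, against -0.017 for all genes. The same 24 were higher in WT. Some of them, such as Slc27a2, Cpt1b and Dio2, passed the filter on low values only through BAT, so that their direction was fixed by the filter. Slc27a2, which imports and activates very long-chain fatty acids, had 48.5 and 41.5 FPKM in BAT against 0.104 and 0.131 FPKM in iWAT (log2 difference 6.20 ± 0.17). Cidea, a protein of the lipid droplet surface, had 1757 and 1754 FPKM in BAT against 49.3 and 45.7 FPKM in iWAT. Cox8b, a muscle and brown fat subunit of cytochrome c oxidase, had 4013 and 3560 FPKM in BAT against 226 and 226 FPKM in iWAT. The smallest of these 3 differences, that of Cox8b, was 16.7-fold, and the pools of the depots did not overlap. Dio2, which converts thyroxine to the active thyroid hormone, had 17.6 and 10.9 FPKM in BAT against 0.0598 and 0.101 FPKM in iWAT. In WT mice Dio2 had 32.3 and 28.8 FPKM in BAT against 0.163 and 0.136 FPKM in iWAT. The Dio2 log2 difference was 4.63 ± 0.21 in H1.2AKO and 5.58 in WT mice, with both BAT pools of H1.2AKO mice below both of WT mice, and the interaction did not pass (adjusted p = 0.84). The 2 genes of the list that were not called were Fgf21 and Adrb3, the main adrenergic receptor of mouse adipocytes, which had 91.2 and 162 FPKM in BAT and 145 and 149 FPKM in iWAT.

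Fabp3, Cox7a1 and Ppara belong to the same thermogenic list and are counted in it. Fabp3, the fatty acid carrier of heart and muscle, had 267 and 295 FPKM in BAT against 5.86 and 2.98 FPKM in iWAT. Cox7a1, another cytochrome c oxidase subunit of muscle and brown fat, had 1507 and 1437 FPKM in BAT against 27.9 and 26.1 FPKM in iWAT. Neither gene overlapped between the depots. Kng2, a kininogen gene on none of the lists and among the 10 largest differences in favour of BAT, had 52.6 and 77.5 FPKM in BAT against 0.312 and 0.332 FPKM in iWAT. Ppara, a nuclear receptor for fatty acids, had 17.6 and 17 FPKM in BAT against 1.14 and 0.907 FPKM in iWAT (log2 difference 3.55 ± 0.13). All 4 were called, and all 4 were also higher in BAT of WT mice.

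**Figure D2:**
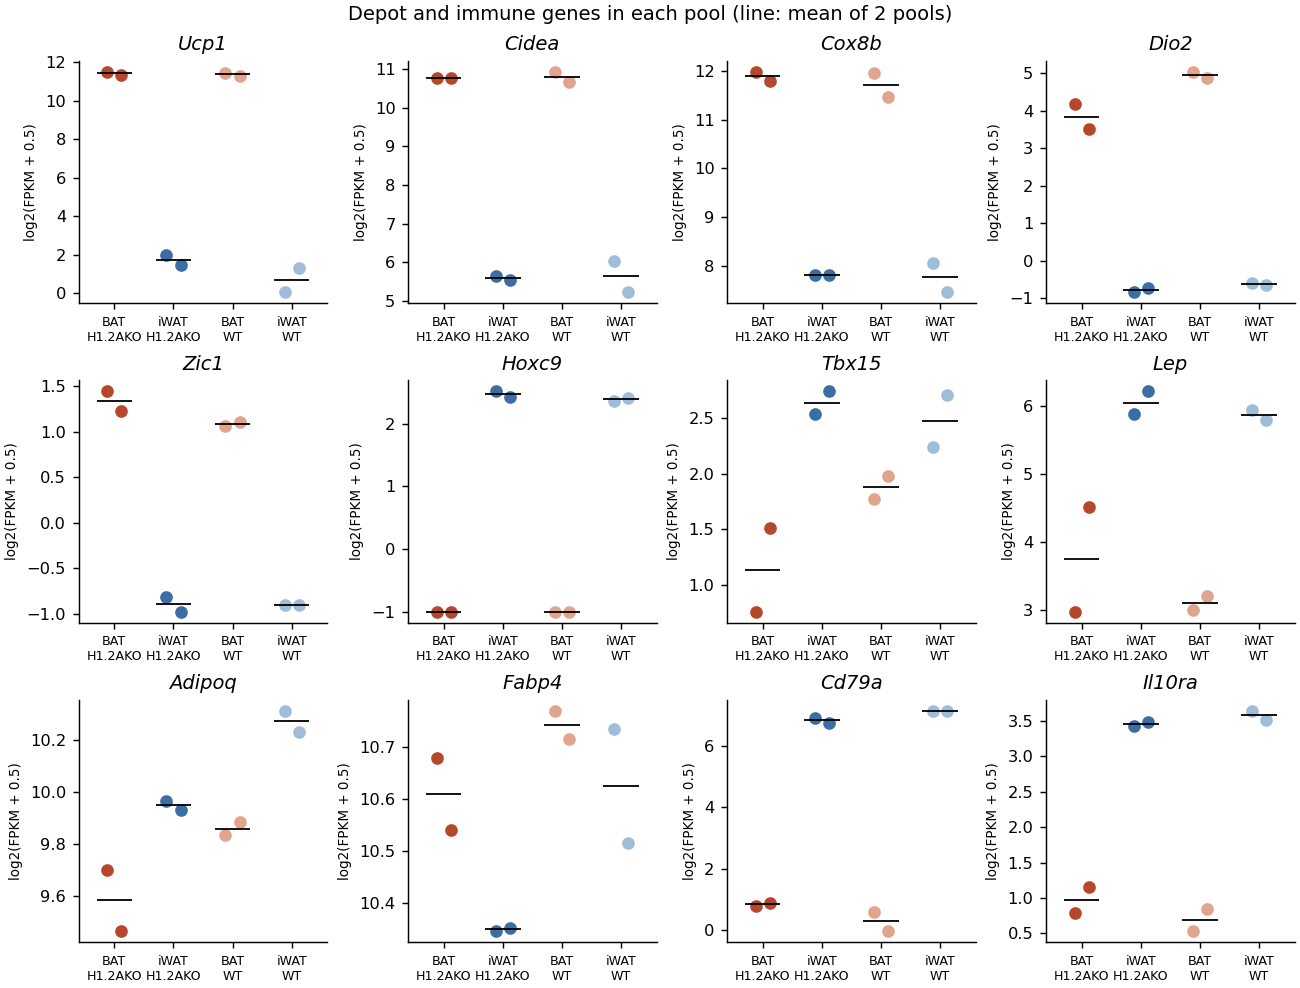
Log2(FPKM + 0.5) of 12 genes, each panel with its own y axis, 1 point per pool and a line at the mean of 2 pools, BAT left of iWAT and H1.2AKO left of WT. Ucp1, Cidea, Cox8b, Dio2 and Zic1 are higher in every BAT pool than in any iWAT pool, Hoxc9, Cd79a and Il10ra are lower in every BAT pool, and Adipoq and Fabp4 span a far smaller range, 707 to 1270 FPKM and 1302 to 1745 FPKM over the 8 pools.

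The respiratory chain and the pathways that feed it were higher in BAT as whole groups. All 37 tested genes listed for complex I were higher in BAT of H1.2AKO mice (100%, against 26.2% of all genes). Their median log2 difference was 1.96. Ndufv1, the subunit that takes electrons from NADH, had 477 and 460 FPKM in BAT against 62.5 and 63.6 FPKM in iWAT (log2 difference 2.88 ± 0.11). All 13 protein genes of the mitochondrial genome were higher as well (100%, against 26.2% of all genes), with a median of 2.41. One of them, mt-Nd2, a complex I subunit, had 18049 and 18777 FPKM in BAT against 3119 and 3154 FPKM in iWAT. Thus both genomes that encode complex I differed in the same direction, in pools that did not overlap. The 2 mitochondrial tRNA genes among the 10 largest differences, mt-Tm and mt-Tq, had 28.9 and 34.6 FPKM and 12.6 and 20.2 FPKM in BAT, and 0 in both iWAT pools, at least 14.9-fold and 7.91-fold higher against a floor of 3 reads per library. tRNAs are short and lack poly(A) tails, so these values rest on few reads of a poly(A) library.

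Of 41 tested genes of complexes II to V, 37 were higher (90.2%, against 26.2% of all genes) and 3 lower (7.32%, against 27.8%). The median was 2.04. Uqcrc1, a core protein of complex III, had 467 and 458 FPKM in BAT against 55.2 and 57.2 FPKM in iWAT (log2 difference 3.03 ± 0.12). The 3 that were lower in BAT belong to ATP synthase. Atpif1, its inhibitor protein, had 4.21 and 5.3 FPKM in BAT against 10.1 and 11.4 FPKM in iWAT. Atp5g1 and Atp5g3 encode the same mature c subunit, the ring that protons turn. Atp5g1 had 1.29 and 3.62 FPKM in BAT against 8.31 and 8.79 FPKM in iWAT. Atp5g3 had 101 and 113 FPKM in BAT against 141 and 157 FPKM in iWAT (log2 difference -0.47 ± 0.14, adjusted p = 0.027). In WT mice the same direction was called for Atpif1 but not for Atp5g1 (adjusted p = 0.39) or Atp5g3 (adjusted p = 0.11). These genes have close copies elsewhere in the genome. Whether the counting split reads between such copies was not tested.

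A site of 9 letters, TCAAGGTCA, to which the estrogen-related receptors bind, was sought on both strands of the promoters in RefSeq (GRCm38.p6), which run from 250 bases before to 50 bases after each start site. Of the genes tested, 9330 matched a promoter by symbol, and 26 of these promoters (0.279%) held the letters. The share was 0.306% (8 of 2613) among genes higher in BAT and 0.383% (10 of 2614) among genes lower in BAT. Among complexes II to V it was 2 of 32 promoters, and among the thermogenic and complex I genes it was 0 of 19 and 0 of 33. The 2 matches in complexes II to V, the only ones among the thermogenic and respiratory chain lists, are shown. They stand beside depot differences of opposite sign. Capitals mark the 9 letters, which read as the reverse complement. Each stretch is written 5′ to 3′ on the strand of its gene, the − strand, at chr9:50603800-50603829 for Sdhd and chr2:73911359-73911388 for Atp5g3.
Sdhd: tttccgggttgtagagTGACCTTGAgccct
Atp5g3: tgttacaaagTGACCTTGAgcgtcttcccc
Sdhd, a membrane anchor of complex II, had 670 and 684 FPKM in BAT against 121 and 136 FPKM in iWAT of H1.2AKO mice, a log2 difference of 2.40 ± 0.12. Its match begins 37 bases after the start site, and that of Atp5g3, the gene that was lower in BAT, begins 52 bases before it (position -52). A match says nothing about binding in these tissues.

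Of 20 tested citric acid cycle genes, 19 were higher in BAT (95%, against 26.2% of all genes) and 0 lower (against 27.8%). The median was 2.53. Idh3b, a subunit of NAD-dependent isocitrate dehydrogenase, had 480 and 481 FPKM in BAT against 57.9 and 60.1 FPKM in iWAT (log2 difference 3.02 ± 0.09). The exception was Pcx, pyruvate carboxylase, with 472 and 488 FPKM in BAT and 551 and 704 FPKM in iWAT, which was not called (adjusted p = 0.20). Of 32 tested genes of fatty acid beta-oxidation, 29 were higher (90.6%, against 26.2% of all genes) and 1 lower (3.12%, against 27.8%). The median was 2.03. Acaa2, the mitochondrial thiolase of the last step, had 1811 and 1781 FPKM in BAT against 76.7 and 84.3 FPKM in iWAT.

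The carnitine palmitoyltransferases, which admit long-chain fatty acids to mitochondria, went in opposite directions by isoform. Cpt1b, the muscle and brown fat form, had 8.93 and 8.44 FPKM in BAT against 0.206 and 0.218 FPKM in iWAT (log2 difference 3.69 ± 0.13). Cpt1a, the liver form, had 3.27 and 3.97 FPKM in BAT against 9.54 and 9.69 FPKM in iWAT (log2 difference -1.30 ± 0.21), and it was the 1 gene of the list that was lower in BAT. Acot1, a cytosolic acyl-CoA thioesterase, had 2.78 and 2.14 FPKM in BAT and 1.42 and 1.1 FPKM in iWAT of H1.2AKO mice, which was not called (adjusted p = 0.13). In WT mice Acot1 had 8.87 and 6.91 FPKM in BAT against 1.92 and 0.567 FPKM in iWAT, which was called with a log2 difference of 2.37. The interaction for Acot1 did not pass (adjusted p = 0.84).

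Of 21 tested genes of branched-chain amino acid breakdown, 20 were higher in BAT (95.2%, against 26.2% of all genes) and 0 lower (against 27.8%). Pccb, a subunit of propionyl-CoA carboxylase, had 254 and 259 FPKM in BAT against 56 and 64.9 FPKM in iWAT (log2 difference 2.08 ± 0.13). Of 76 tested mitochondrial ribosomal proteins, 73 were higher (96.1%, against 26.2% of all genes) and 0 lower (against 27.8%). The median was 1.01. Mrpl9, a protein of the large mitochondrial ribosomal subunit, had 78.7 and 76.1 FPKM in BAT against 27.1 and 27.4 FPKM in iWAT. With the values recomputed per read, 47 mitochondrial ribosomal proteins were higher and 2 lower, with a median of 0.49 against an all-gene median of -0.50.

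Cytosolic ribosomal proteins lay on the other side, with 0 of 58 higher and 48 (82.8%) lower in BAT, against 27.8% lower among all genes tested, and a median of -0.77. Rpl12, of the large subunit, had 40.1 and 38.2 FPKM in BAT against 113 and 105 FPKM in iWAT (log2 difference -1.47 ± 0.07). Rps10, of the small subunit, had 76.6 and 72.2 FPKM in BAT against 154 and 157 FPKM in iWAT. Both passed in WT mice too, where 51 of 58 were lower, against 28.1% of all genes tested there. Many genes of this family have processed copies in the genome. Whether the counting split reads between them was not tested.

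**Figure D3:**
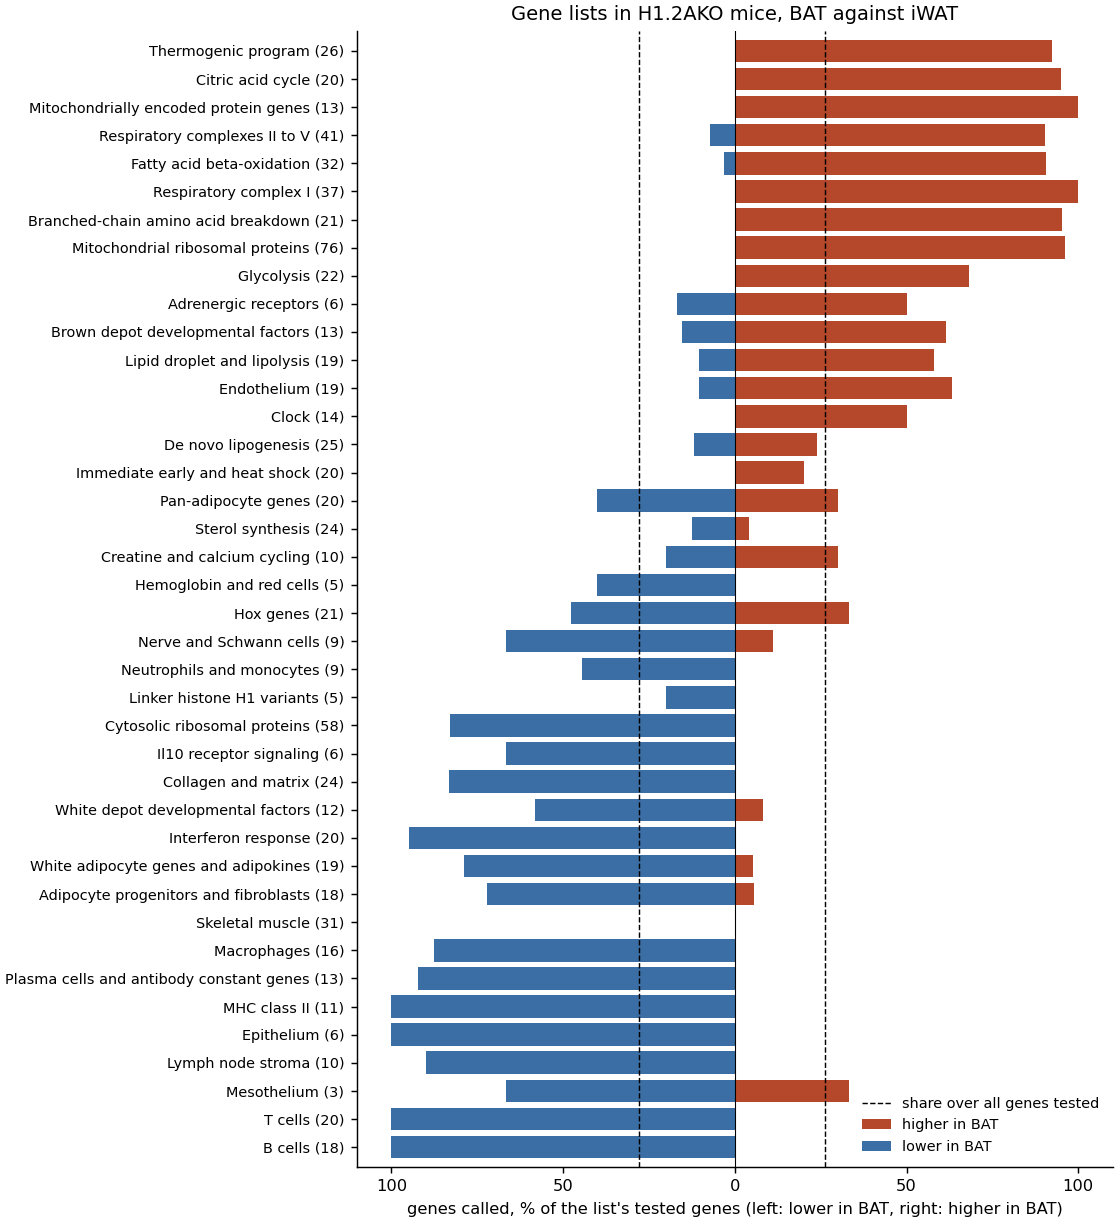
Percent of the tested genes of each list called higher in BAT and called lower in BAT of H1.2AKO mice, with dashed lines at the shares of all genes tested (26.2% higher, 27.8% lower). Respiratory chain and thermogenic lists lie at or near 100% higher, B and T cell lists at 100% lower, and the skeletal muscle list at 0% on both sides. The epithelium bar covers 6 of 14 genes, which passed the filter on low values through iWAT. Some thermogenic genes passed it only through BAT, and some B cell genes only through iWAT.

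Sugar and lipid metabolism differed less evenly. Of 22 tested glycolysis genes, 15 were higher in BAT (68.2%, against 26.2% of all genes) and 0 lower, with a median of 0.97. Ldhb, the lactate dehydrogenase subunit of oxidative tissues, had 464 and 460 FPKM in BAT against 32 and 35.3 FPKM in iWAT. Of 25 tested genes of de novo lipogenesis, 6 were higher (24%, close to the 26.2% of all genes) and 3 lower (12%, against 27.8%), with a median of 0.49 that turned to -0.33 with quantile normalization and to -0.05 per read, and 12 were higher when either iWAT pool of WT mice was left out. With the first BAT pool, the second BAT pool or the second iWAT pool of H1.2AKO mice left out, 1 was lower. Fasn, fatty acid synthase, had 3405 and 3761 FPKM in BAT and 1850 and 2494 FPKM in iWAT and was not called (adjusted p = 0.071). Acacb, the mitochondrial acetyl-CoA carboxylase, was among those higher, with 190 and 191 FPKM in BAT against 45.7 and 48.4 FPKM in iWAT. Of 24 tested sterol synthesis genes, 1 was higher (4.17%) and 3 lower (12.5%), both below the shares of all genes, with a median of -0.10 that turned to 0.07 without the second iWAT pool of H1.2AKO mice. Leaving out any 1 pool of H1.2AKO mice changed these calls: 0 were called without the first BAT pool or the second iWAT pool, 1 higher and 0 lower without the second BAT pool, and 0 higher and 2 lower without the first iWAT pool. Without the first or the second iWAT pool of WT mice 3 were higher, with 3 and 5 lower, and with the first or the second BAT pool of WT mice left out 1 was higher and 2 lower. Of 19 tested genes of lipid droplets and lipolysis, 11 were higher (57.9%, against 26.2% of all genes) and 2 lower (10.5%, against 27.8%). The median of 0.73 was 0.07 with quantile normalization (7 higher, 5 lower) and 0.19 per read (7 higher, 4 lower). Plin5, which ties droplets to mitochondria, had 115 and 99.5 FPKM in BAT against 8.02 and 8.29 FPKM in iWAT.

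Creatine and calcium cycling can also produce heat in fat. Of 10 tested genes 3 were higher (30%, against 26.2% of all genes) and 2 lower (20%, against 27.8%) in BAT of H1.2AKO mice, shares close to the background. The list median was -0.34 in H1.2AKO and 1.38 in WT mice, and the list holds skeletal muscle genes (Ryr1, Atp2a1, Ckmt2), whose levels varied between pools of a group. Atp2a2, the calcium pump of the endoplasmic reticulum, had 74.7 and 72 FPKM in BAT against 31.2 and 33.3 FPKM in iWAT of H1.2AKO mice. In WT mice Atp2a2 had 104 and 113 FPKM in BAT against 32.5 and 29.3 FPKM in iWAT. The Atp2a2 difference was called in both genotypes, at 1.17 in H1.2AKO and 1.79 in WT mice, and the interaction did not pass (adjusted p = 0.68). Gatm, of creatine synthesis, was lower in BAT, with 0.62 and 1.57 FPKM against 3.17 and 3.32 FPKM in iWAT.

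Genes of the pan-adipocyte list were divided between the directions. The list includes Lep, Retn and Adipoq, which are also on the list of white adipocyte genes and adipokines. It includes Adrb3 as well, which is also on the thermogenic list. Over the 20 tested genes of the pan-adipocyte list 6 were higher (30%, against 26.2% of all genes) and 8 lower (40%, against 27.8%), with a median of -0.08 that turned to 0.12 without the first BAT pool of H1.2AKO mice. Adipoq, the gene of adiponectin, had 833 and 707 FPKM in BAT against 1000 and 976 FPKM in iWAT (log2 difference -0.36 ± 0.12, adjusted p = 0.036). Fabp4, the adipocyte fatty acid carrier, had 1640 and 1488 FPKM in BAT and 1302 and 1308 FPKM in iWAT, and Plin1, the coat protein of the large droplet, had 578 and 597 FPKM in BAT and 462 and 478 FPKM in iWAT. Neither was called (adjusted p = 0.13 and 0.058), and the sign of both turned under other scalings. Pparg, the master regulator of adipocyte differentiation, had 153 and 174 FPKM in BAT against 72.7 and 85.7 FPKM in iWAT (log2 difference 1.04 ± 0.12).

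White adipocyte genes and adipokines were lower in BAT for 15 of 19 tested (78.9%, against 27.8% of all genes). Of the 19, 1 was higher (5.26%, against 26.2%), and the median was -1.74. Lep, the gene of the satiety hormone leptin, had 7.35 and 22.4 FPKM in BAT against 58.7 and 74.1 FPKM in iWAT (log2 difference -2.31 ± 0.44, adjusted p = 0.0047). Trf, transferrin, had 5.91 and 4.99 FPKM in BAT against 42.6 and 44.7 FPKM in iWAT. Gsn, the actin-severing protein gelsolin, had 730 and 720 FPKM in BAT against 2981 and 2948 FPKM in iWAT. The 1 that was higher was Vldlr, a lipoprotein receptor, with 9.05 and 11.2 FPKM in BAT against 4.74 and 5.25 FPKM in iWAT. In WT mice 14 of the 19 were lower in BAT, against 28.1% of all genes tested there.

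Developmental factors are known to mark where a depot arose. Of 16 brown depot factors 13 passed the filter on low values. In BAT 8 were higher (61.5%, against 26.2% of all genes), 2 lower (15.4%, against 27.8%) and 3 not called. The median was 0.84 (0.40 with no filter, 0.33 per read). Zic1 and Eva1a passed only through BAT. The largest difference of the list in favour of BAT, 3.93, was that of Pdk4, a kinase of pyruvate dehydrogenase and not a developmental factor. Epsti1, given below, had the list's largest difference in either direction, -4.11. Pdk4 had 291 and 316 FPKM in BAT against 20.7 and 18.3 FPKM in iWAT. Zic1, a transcription factor of classical brown fat, had 2.21 and 1.85 FPKM in BAT against 0.0687 and 0.00861 FPKM in iWAT (log2 difference 2.23 ± 0.16). Prdm16, a coregulator of the brown fate, had 4.18 and 5.18 FPKM in BAT against 1.12 and 1.18 FPKM in iWAT. The 2 that were lower were Epsti1, with 0.981 and 1.24 FPKM in BAT against 29.3 and 25.1 FPKM in iWAT, and Irf4, with 3.07 and 4.83 FPKM in BAT against 6.99 and 6.97 FPKM in iWAT. Both are also known from leukocytes: Epsti1 responds to interferon, and Irf4 is a factor of lymphocytes. Irf4 was not called in WT mice (6.58 and 8.31 FPKM in BAT, 7.51 and 6.98 FPKM in iWAT, adjusted p = 0.91), and its interaction did not pass (adjusted p = 0.85).

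Of 16 white depot factors 12 passed the filter on low values. In BAT 7 were lower (58.3%, against 27.8% of all genes), 1 higher (8.33%, against 26.2%) and 4 not called. Hoxc9, Hoxc10, Shox2 and Emx2 passed only through iWAT, so that their direction was fixed by the filter. The median was -1.57, and -0.41 with no filter. Tbx15, a T-box factor of inguinal fat, had 1.19 and 2.35 FPKM in BAT against 5.32 and 6.19 FPKM in iWAT of H1.2AKO mice (log2 difference -1.51 ± 0.27). In WT mice Tbx15 had 2.93 and 3.46 FPKM in BAT and 4.24 and 6.04 FPKM in iWAT, which was not called (adjusted p = 0.11), and the interaction did not pass (adjusted p = 0.85). Shox2, a homeobox factor, had 0.458 and 0.412 FPKM in BAT against 4.07 and 3.88 FPKM in iWAT.

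Hox genes, which record position along the body axis in the order of their numbers, divided by that order. The table lists 39 of them and 21 were tested. Of these 7 were higher (33.3%, against 26.2% of all genes) and 10 lower (47.6%, against 27.8%) in BAT of H1.2AKO mice. The tested genes span paralog groups 2 to 10. All 7 that were higher belong to groups 2 to 5 (8 tested, 0 lower), and all 10 that were lower to groups 6 to 10 (13 tested, 0 higher), some of which passed the filter on low values only through iWAT. The boundary between the groups was placed after the values were seen. With mitochondrially encoded genes removed 5 of the first set were higher and 1 lower, per read 4 were higher and 1 lower, and in the second set 0 were higher under any alternative run. Hoxa5 had 14.9 and 19.3 FPKM in BAT against 2.94 and 2.61 FPKM in iWAT, and Hoxa4 had 6.74 and 6.59 FPKM in BAT against 0.6 and 0.677 FPKM in iWAT. Hoxc8 had 1.44 and 1.08 FPKM in BAT against 7.98 and 8.88 FPKM in iWAT.

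Hoxc9 (chromosome 15 from 102976439 to 102985099, + strand) had no read in either BAT pool and 5.22 and 4.88 FPKM in iWAT, at least 59.4-fold lower in BAT against a floor of 3 reads per library. Its neighbour Hoxc10 also had 0 in both BAT pools and 7.72 and 8.47 FPKM in iWAT, at least 74.8-fold lower. Hoxa10 had 0 in both BAT pools and 1.9 and 2.31 FPKM in iWAT, at least 33.3-fold lower. In BAT of WT mice Hoxc9 and Hoxa10 had no read either. Of the 17 Hox genes called in H1.2AKO mice, 16 were called in the same direction in WT, and the other was Hoxd9.

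**Figure D4:**
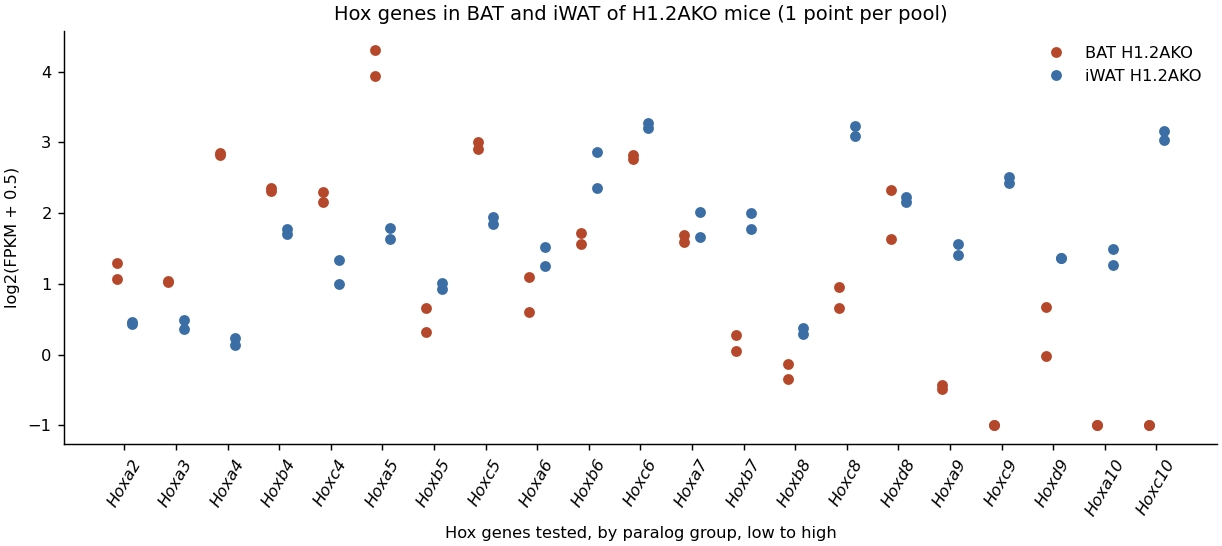
Log2(FPKM + 0.5) of the 21 tested Hox genes in the order of their paralog groups, 1 point per pool of H1.2AKO mice. The BAT pools lie above the iWAT pools in groups 2 to 5, apart from Hoxb5, and below them in groups 6 to 10, apart from Hoxa7 and Hoxd8, where the pools overlap. The value -1 marks genes with no read.

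Of 9 listed adrenergic receptors 6 were tested. Of these 3 were higher (50%, against 26.2% of all genes) and 1 lower (16.7%, against 27.8%) in BAT. Adrb1, the beta receptor of heart and of brown preadipocytes, had 14.7 and 18.6 FPKM in BAT against 0.872 and 1.08 FPKM in iWAT (log2 difference 3.53 ± 0.14). Adra1a had 9.17 and 6.27 FPKM in BAT against 0.817 and 0.764 FPKM in iWAT, and Adra1d had 13.4 and 16.7 FPKM in BAT against 4.07 and 3.15 FPKM in iWAT. Adra1b, a receptor of the same alpha class, lay on the other side, with 0.102 and 0.161 FPKM in BAT against 0.81 and 1.16 FPKM in iWAT. It passed the filter on low values only through iWAT. These 4 had the same calls in WT mice. Adrb3, given above, was not called.

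Of 14 tested clock genes 7 were higher in BAT (50%, against 26.2% of all genes) and 0 lower (against 27.8%). The median was 0.53, while per read 6 were higher and 3 lower. Cry1, a repressor of the clock, had 5.64 and 5.48 FPKM in BAT against 2.02 and 2.57 FPKM in iWAT. Ciart, another repressor, had 5.58 and 3.98 FPKM in BAT against 1.35 and 1.21 FPKM in iWAT of H1.2AKO mice. In WT mice Ciart had 6.86 and 8.57 FPKM in BAT and 5.14 and 5.49 FPKM in iWAT. The Ciart difference was 1.55 ± 0.17 in H1.2AKO mice and 0.49 in WT mice, where it was not called (adjusted p = 0.051), and the interaction did not pass (adjusted p = 0.74). The iWAT pools of H1.2AKO mice had the lowest Ciart levels of all.

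Lymphocyte genes were lower in BAT. All 18 B cell genes tested were lower in BAT of H1.2AKO mice (100%, against 27.8% of all genes). Their median log2 difference was -4.43. All 20 T cell genes were lower too (100%, against the same 27.8%), with a median of -3.67. Some B cell genes passed the filter on low values only through iWAT, so that their direction was fixed by the filter. An example is Cd22, with 0.0829 and 0.246 FPKM in BAT against 14.8 and 12.1 FPKM in iWAT. The summed level of the B cell genes was 9.98 and 15 FPKM in BAT against 666 and 650.1 FPKM in iWAT, and that of the T cell genes was 20.8 and 19.9 FPKM in BAT against 438 and 397 FPKM in iWAT. Neither sum overlapped between the depots. Cd79a, a chain of the B cell receptor, had 1.23 and 1.36 FPKM in BAT against 119 and 106 FPKM in iWAT (log2 difference -5.98 ± 0.19, adjusted p = 1.2e-05). Cd3e, a chain of the T cell receptor complex, had 0.72 and 0.523 FPKM in BAT against 10.5 and 9.18 FPKM in iWAT. Every iWAT pool of both genotypes had more of these transcripts than any BAT pool.

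Genes of the lymph node list were lower in BAT as well, though not all of them belong to the structure of the node. Lyve1, for example, is also on the macrophage list. Glycam1, made by the high endothelial venules where lymphocytes enter the node, had 0 in both BAT pools and 27.7 and 27 FPKM in iWAT, at least 82.7-fold lower in BAT. Ltb, the lymphocyte cytokine lymphotoxin beta, had 1.32 and 0.72 FPKM in BAT against 68 and 65.1 FPKM in iWAT. Of 15 lymph node genes 10 passed the filter on low values, some only through iWAT. Of these 10, 9 were lower in BAT (90%, against 27.8% of all genes). In BAT the summed level of this list was 69.3 and 83.4 FPKM, against 310.8 and 289.9 FPKM in iWAT. The part of the lymph node in the other differences between depots was not tested.

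Of 13 tested plasma cell and antibody genes 12 were lower in BAT (92.3%, against 27.8% of all genes). Igkc, the constant kappa light chain, had 118 and 118 FPKM in BAT against 1117 and 1694 FPKM in iWAT. Mzb1, a chaperone of antibody assembly, had 0.304 and 0.377 FPKM in BAT against 14.2 and 14.2 FPKM in iWAT. It passed the filter on low values only through iWAT. Among all genes lower in BAT, the fitted differences were largest in 2 antibody joining segments that are not on this list, Igkj5 (0 in both BAT pools, 85.9 and 44.4 FPKM in iWAT) and Ighj4 (0 in both BAT pools, 41 and 28.1 FPKM in iWAT), at least 13.2-fold and 9.04-fold lower. These segments are short, and their FPKM in iWAT rest on 38 to 83 reads and on 31 to 51 reads.

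Macrophage genes were lower in BAT for 14 of 16 tested (87.5%, against 27.8% of all genes), with a median of -2.17. Cd163, a scavenger receptor of resident macrophages, had 2.38 and 3.3 FPKM in BAT against 26.9 and 26.8 FPKM in iWAT. All 11 class II MHC genes were lower (100%, against 27.8% of all genes), with H2-Aa at 53.8 and 52.9 FPKM in BAT against 306 and 338 FPKM in iWAT. Among them H2-Oa had 0.315 and 0.208 FPKM in BAT against 12.1 and 14.9 FPKM in iWAT. It passed the filter on low values only through iWAT, so that its direction was fixed by the filter. Of 20 interferon response genes 19 were lower (95%, against 27.8% of all genes). Irf7, a factor that induces interferons, had 6.14 and 5.6 FPKM in BAT against 35.4 and 31.3 FPKM in iWAT. Of 12 neutrophil and monocyte genes 9 were tested, of which 4 were lower (44.4%, against 27.8% of all genes) and 5 not called, with a median of -0.62. Those lower included Ly6c2, a surface protein of inflammatory monocytes, with 1.06 and 0.871 FPKM in BAT against 17.5 and 20.2 FPKM in iWAT. The pan-leukocyte gene Ptprc (CD45) had 0.628 and 0.73 FPKM in BAT against 10.5 and 8.22 FPKM in iWAT.

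The receptor of the cytokine IL-10 followed the same direction. Il10ra, the chain that binds the cytokine, had 1.22 and 1.72 FPKM in BAT against 10.3 and 10.6 FPKM in iWAT of H1.2AKO mice (log2 difference -2.49 ± 0.16, adjusted p = 6.1e-05). In WT mice Il10ra had 0.949 and 1.3 FPKM in BAT against 11.9 and 10.9 FPKM in iWAT, a log2 difference of -2.88. The pools of the genotypes overlapped in BAT, and in iWAT those of H1.2AKO mice lay just below those of WT mice, while the interaction did not pass (adjusted p = 0.87). Il10rb, the second chain, had 3 and 2.79 FPKM in BAT against 5.08 and 4.57 FPKM in iWAT (log2 difference -0.65 ± 0.10). The kinases Jak1 and Tyk2, which carry the signal, were lower in BAT by less, at log2 differences of -0.91 and -0.50. Stat3, their target, had 14.1 and 12.2 FPKM in BAT and 16 and 14.8 FPKM in iWAT and was not called (adjusted p = 0.13). Il10 itself had 0 and 0.208 FPKM in BAT and 0.829 and 0.337 FPKM in iWAT, below the limit for testing. Leukocyte genes were lower together with Il10ra in BAT, and their part in its difference was not tested.

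**Figure D5:**
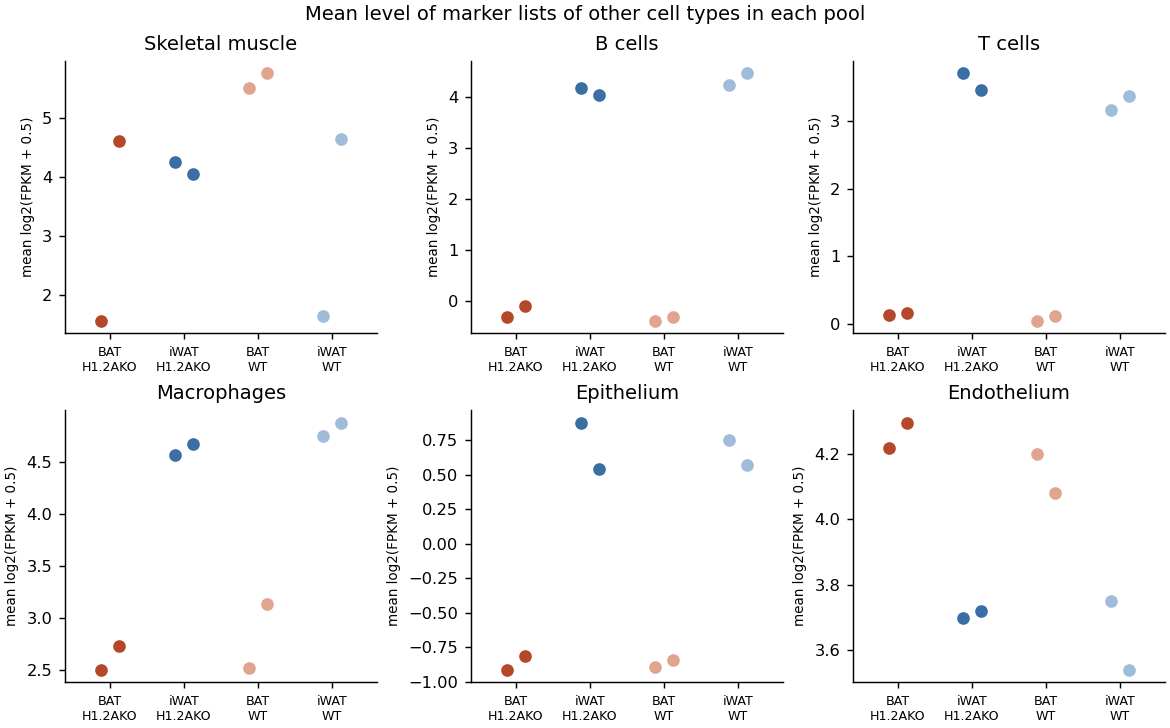
Mean log2(FPKM + 0.5) of 6 lists of marker genes in each of the 8 pools, BAT left of iWAT and H1.2AKO left of WT. B cell, T cell, macrophage and epithelium lists are lower in all BAT pools than in all iWAT pools and the endothelium list is higher, while the skeletal muscle list is low in the first BAT pool of H1.2AKO mice and in the first iWAT pool of WT mice.

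Stromal genes were also lower in BAT. Of 24 tested collagen and matrix genes 20 were lower (83.3%, against 27.8% of all genes) and 0 higher (against 26.2%). The median was -1.42. Fn1, fibronectin, had 4.63 and 7.4 FPKM in BAT against 50.9 and 65.8 FPKM in iWAT. Of 18 tested genes of adipocyte progenitors and fibroblasts 13 were lower (72.2%, against 27.8% of all genes) and 1 higher (5.56%, against 26.2%). The median was -1.83. Dpp4, a marker of early interstitial progenitors, had 0.382 and 1.09 FPKM in BAT against 13.5 and 13 FPKM in iWAT. The 1 that was higher was F3, tissue factor, with 32.6 and 43.1 FPKM in BAT against 16.1 and 18.8 FPKM in iWAT.

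Endothelial genes went the other way, with 12 of 19 higher (63.2%, against 26.2% of all genes) and 2 lower (10.5%, against 27.8%) in BAT. Their median was 0.65, and per read 7 were higher and 5 lower. Tie1, a receptor of vessel walls, had 31.9 and 28 FPKM in BAT against 11.9 and 9.7 FPKM in iWAT. Vegfa, the growth factor that draws vessels, had 133 and 126 FPKM in BAT against 48.4 and 55.1 FPKM in iWAT. Among genes of nerves and Schwann cells 1 of 9 was higher (11.1%, against 26.2% of all genes) and 6 were lower (66.7%, against 27.8%). S100b, a calcium-binding protein of Schwann cells that brown adipocytes also make, was the one higher, with 28.6 and 36.8 FPKM in BAT against 1.32 and 1.62 FPKM in iWAT. Pmp22, a myelin protein, had 19.5 and 29.2 FPKM in BAT against 70.5 and 84.5 FPKM in iWAT.

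Of 14 epithelial genes 6 passed the filter on low values, each through its level in iWAT, so that their direction was largely fixed by the filter. Krt8, a keratin of simple epithelia, had 0 in both BAT pools and 7.54 and 3.88 FPKM in iWAT, at least 49.9-fold lower. Epcam, an adhesion protein of epithelia, had 0 and 0.0334 FPKM in BAT against 3.22 and 2.16 FPKM in iWAT. Krt8 and Krt19 are also on the mesothelium list, of which 3 genes were tested. In BAT 2 were lower (66.7%, against 27.8% of all genes) and 1 higher (33.3%, against 26.2%). The call of the 1 that was higher did not hold without the second BAT pool. The basal keratins Krt5 and Krt14 stayed below 1 FPKM in every pool.

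Skeletal muscle genes varied widely between pools of the same group. Their summed level was 191.9 and 2169 FPKM in BAT and 3662 and 3470 FPKM in iWAT of H1.2AKO mice, and 4075 and 4645 FPKM in BAT and 250 and 5285 FPKM in iWAT of WT mice. Thus 1 BAT pool of H1.2AKO mice and 1 iWAT pool of WT mice stood apart as low. By this sum, which abundant genes dominate, both BAT pools of H1.2AKO mice lay below both iWAT pools. By the mean log2(FPKM + 0.5) over the list they did not, with 1.57 and 4.60 in BAT and 4.26 and 4.05 in iWAT of H1.2AKO mice. The median log2 difference over 31 tested muscle genes was -1.86 in H1.2AKO mice, and the pools of the depots did not overlap for 21 of them, a smaller share than the 79.1% of all genes tested. By limma 0 of the 31 were called in H1.2AKO mice, against 54.0% of all genes tested, which does not show that the depots were alike. In WT mice 9 of the 31 were higher in BAT (25.3% of all genes were) and 0 lower (28.1% of all genes were). Leaving out the first or the second BAT pool of H1.2AKO mice changed the calls of this list. Over all alternatives its median log2 difference ranged from -3.24 to -0.51. Myh4, the myosin of fast fibres, had 7.69 and 122 FPKM in BAT and 353 and 354 FPKM in iWAT of H1.2AKO mice. Tnnc1, the troponin C of slow fibres and heart, had 0.397 and 10.4 FPKM in BAT and 0.334 and 0.188 FPKM in iWAT. With the muscle level as a covariate 3421 genes over all were higher and 3734 lower in BAT of H1.2AKO mice, and the thermogenic and complex I counts stayed at 24 and 37. Immediate early and heat shock genes also differed between the BAT pools, with summed levels of 264.5 and 564 FPKM, against 277 and 354 FPKM in iWAT. Of the 20 tested, 4 were higher in BAT (20%, below the 26.2% of all genes) and 0 lower, and without the second BAT pool 5 were higher and 3 lower, with the median at -0.44 in place of 0.21.

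The genes with the smallest p for the interaction were read individually, since none passed. Mirlet7i, the precursor of the microRNA let-7i, had 1.53 and 2.27 FPKM in BAT and 1.45 and 1.09 FPKM in iWAT of H1.2AKO mice, and 0 in both BAT pools and 2.22 and 2.58 FPKM in iWAT of WT mice (adjusted p = 0.18). Mir1932 had 1.53 and 1.52 FPKM in BAT and 0 in both iWAT pools of H1.2AKO mice, and 0 in both BAT pools and 2.22 and 1.03 FPKM in iWAT of WT mice (adjusted p = 0.18). In the H1.2AKO pools neither rested on more than 3 reads in any library. Cldn1, a protein of tight junctions, was higher in BAT in both genotypes, with 1.15 and 1.26 FPKM in BAT against 0.75 and 0.679 FPKM in iWAT of H1.2AKO mice. In WT mice Cldn1 had 4.59 and 5.61 FPKM in BAT against 0.646 and 0.616 FPKM in iWAT. Its depot difference was 0.49 in H1.2AKO and 2.30 in WT mice (interaction adjusted p = 0.28). Iglv1, a variable lambda segment, had 16.5 and 15.2 FPKM in BAT against 56.2 and 51.8 FPKM in iWAT of H1.2AKO mice, and 5.6 and 4.57 FPKM in BAT against 65 and 92.1 FPKM in iWAT of WT mice. Gm11808, a gene model, had 130 and 133 FPKM in BAT against 42.3 and 36 FPKM in iWAT of H1.2AKO mice, and 64.4 and 74.7 FPKM in BAT against 49.8 and 47.8 FPKM in iWAT of WT mice. Both kept their direction in the 2 genotypes, and the interaction adjusted p was 0.33 for each.

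Only 8 genes were called in opposite directions in the genotypes, namely Mir1932, Ccl2, Gm9392, Svep1, Gm22888, Haus3, Hba-a1 and Trip6. Ccl2, the chemokine that draws monocytes, had 1.63 and 3.18 FPKM in BAT against 5.65 and 6.29 FPKM in iWAT of H1.2AKO mice. In WT mice Ccl2 had 10.1 and 9.52 FPKM in BAT against 3.64 and 3.31 FPKM in iWAT. The Ccl2 difference was -1.21 in H1.2AKO and 1.38 in WT mice, and the interaction did not pass after adjustment (adjusted p = 0.33). Hba-a1, an alpha globin of red cells with a near-identical copy, had 122 and 169 FPKM in BAT against 193 and 218 FPKM in iWAT of H1.2AKO mice, and 175 and 213 FPKM in BAT against 139 and 133 FPKM in iWAT of WT mice. Of 5 tested globin and red cell genes 2 were lower in BAT of H1.2AKO mice, and 0 were called without the first BAT pool or without any 1 of the 4 iWAT pools of both genotypes. Without the second BAT pool 3 were lower, and with the first or the second BAT pool of WT mice left out 1 was lower. With all libraries the 2 of 5 globin and red cell genes were 40%, against 27.8% lower among all genes tested. Haus3, Svep1 and Trip6 differed by less than 0.4 on the log2 scale in either genotype. Ccl2 was named here after its values were seen.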

How the data were processed

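RNA of 8 pools (2 per tissue and genotype) was measured by poly(A) RNA-seq. Gene-level FPKM of each library were deposited by the authors. Alignment with HISAT2 2.0.5 to mm10 (GRCm38.p6) comes from the submitters' processing notes. For the read counter, the FPKM tool and the study's own test: not given in the sources used here. Values were analysed as log2(FPKM + 0.5) in R 4.3.3 with limma 3.58.1. One mean per tissue and genotype was fitted over all 8 libraries with trended moderation (4 residual and 2.59 prior degrees of freedom), so that both contrasts share 1 estimate of spread. Genes averaging 0.5 FPKM or more in the 4 libraries of a contrast were tested, two-sided, with Benjamini-Hochberg adjustment, and called at an adjusted p under 0.05. With 2 pools against 2 an exact permutation test cannot go below p = 0.333. Log2 differences understate changes of low genes. In every library 100% of the values came to whole reads within 0.01. The 40 gene lists and the rule were chosen with earlier results of these data known. The rule names Hist1h1c, the 10 largest non-overlapping calls per direction, the 4 genes of smallest p per list, the 5 smallest interaction p and 24 genes from the study. Other list members are named with their values. Values of some listed genes are not reported here. The script was tested on simulated data. Alternatives were other pseudocounts, filters, scalings, moderation, limma-voom on recovered reads, the replicate block, the muscle covariate, protein-coding genes, other thresholds, 1 genotype alone and each library left out.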

Additional observations from a re-analysis of the deposited data

How the results depend on the processing

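Of 171 called named genes, 153 kept the call in every alternative that tested them, a share that the choice of genes by size and p largely fixed. With mitochondrially encoded genes removed and the libraries rescaled, 2110 genes were higher and 5920 lower in BAT of H1.2AKO mice, and 2369 higher in WT. Recomputed per read, a setting chosen after seeing the data, 1554 were higher and 7506 lower in H1.2AKO mice and 1706 higher and 7070 lower in WT, and 86.7% of H1.2AKO calls were shared. At a size of 2-fold the counts were 1317 and 2176 in H1.2AKO mice, 1306 and 2101 in WT, and 2844 shared. The depot by genotype interaction called 3 genes with a pseudocount of 0.1 (Ighj4, Mirlet7i and Mir1932) and 5 with no filter on low values.

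Leaving out 1 library each gave 2734 to 3591 genes higher and 2886 to 3828 lower in BAT of H1.2AKO mice, 2604 to 3628 higher and 3067 to 4017 lower in WT, 5031 to 6024 shared, and 0 to 3 interaction calls (2 without the first iWAT pool of H1.2AKO mice, 3 without the second iWAT pool of WT mice). With the replicate block 3648 genes were higher and 3834 lower, 6283 were shared, and the interaction called 0 genes (958 at an unadjusted p under 0.05). For each gene the first pool minus the second was taken in BAT and in iWAT. Over genes these differences had a correlation of 0.098 in H1.2AKO (14079 genes) and 0.129 in WT mice (14094 genes). A single such difference per tissue cannot settle whether the numbers mark pairs. They were not taken as pairs.

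The sign turned for Fabp4 (-0.072 without mitochondrially encoded genes, -0.58 with quantile normalization, -0.28 per read), Plin1 (-0.0096, -0.31 and -0.22 under the same settings), Acsl1 (-0.10 with quantile normalization), H1f0 (-0.070 per read) and Hba-a2 (-0.56 to 0.13 with 1 library left out, 0.13 without the first BAT pool of H1.2AKO mice). De novo lipogenesis, with 6 genes higher, had 12 with the first or the second iWAT pool of WT mice left out and 13 with the 4 H1.2AKO libraries alone. The cause of these shifts was not tested. The edgeR alternative on recovered reads was not run, because the deposited values are FPKM.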
